A study of Homo sapiens with 15 samples.

Results

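The untreated libraries of the human colorectal carcinoma lines DLD1, HCT8 and HCT116 give the methylation of repetitive DNA before any drug was added. They were chosen by their labels, as the libraries at 0 nM azacitidine, and are 6 of the 15 bisulfite sequencing libraries of the series, with 2 technical replicates per line. The other 9 libraries come from the same lines cultured with 500 or 1000 nM azacitidine, a cytidine analogue that traps DNA methyltransferases. All cultures were grown in the same serum-containing medium, and each untreated group is the parental line with no drug and no stated genetic change. DLD1 and HCT8 are reported to share a genetic origin, so the lines are not a sample of 3 unrelated tumours. The table holds no marker by which the identity of a line could be checked.

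Repeats make up a large part of the human genome and hold many of its CpG dinucleotides, most of which are methylated in normal tissue. Methylation there helps to keep retrotransposons and endogenous retroviruses silent and heterochromatic satellites compact. In many cancers this methylation is partly lost, to a different extent from tumour to tumour, and the level before treatment is what a demethylating drug acts on.

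Each library lists a whole percent of CpG methylation for 834 named repeats of the RepeatMasker annotation. How many reads lie behind a value is unknown, counting error cannot be stated, and the errors below are the spread between technical replicates, which does not measure the spread between cultures. Single repeats could not be followed from library to library. Across repeats, the 3 pairs of technical replicates correlated at -0.00192 to 0.0843, and all 15 pairs of untreated libraries at -0.0881 to 0.0843. AluY, a young Alu subfamily of very high copy number, was listed at 73% and 56% in DLD1, 95% and 57% in HCT8, and 0% and 77% in HCT116. The lines were therefore compared by summaries for which row order is irrelevant, which assumes that every column covers the same repeats.

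DLD1 was the least methylated line and HCT116 the most, and this order held at the centre of the distribution in every library. The median over repeats was 62% and 63% in the DLD1 replicates, 71% in both HCT8 replicates and 75% in both HCT116 replicates. The mean over repeats was 60.1% and 60.4% in DLD1, 68.0% and 68.7% in HCT8, and 72.9% in each HCT116 library. Replicates of a line differed by at most 1 point in the median, and no library of one line overlapped those of another. The median of HCT116 was 12.5 points above that of DLD1 and 4 points above that of HCT8, and HCT8 was 8.5 points above DLD1.

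**Figure D1:**
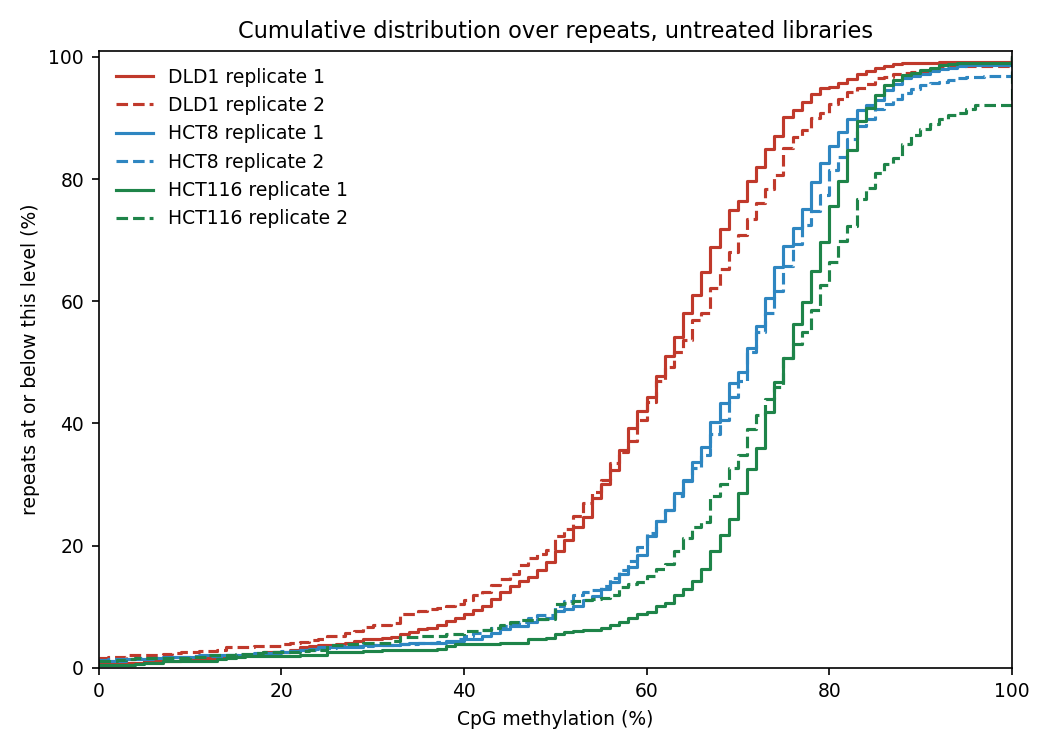
Share of the 834 repeats (y axis, percent) at or below each CpG methylation level (x axis, percent) in the 6 untreated libraries; colour marks the line, and solid and dashed lines mark replicates 1 and 2. The curves of DLD1 lie to the left, those of HCT116 to the right, and replicates run together around the median, at 62% to 63% in DLD1, 71% in HCT8 and 75% in HCT116.

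Differences between lines made up 99.7% of the sum of squares of the 6 medians and 99.8% of that of the 6 means. The exact permutation test over the 15 ways of splitting 6 libraries into 3 pairs gave p = 0.0667 for each (one-sided, adjusted p = 0.2 over 9 summaries), the smallest p that this design allows. For each pair of lines the exact permutation test of 2 against 2 libraries gave p = 0.33 for the median and the mean (two-sided), again the smallest possible. The untreated libraries alone therefore cannot pass a threshold of 0.05, however far apart the lines lie.

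Drawing a repeat at random from each of 2 libraries gives the same order as a probability. A value of HCT116 exceeded one of DLD1 in 73.0% to 79.8% of such draws over the 4 library pairs, with ties counted at equal weight. A value of HCT8 exceeded one of DLD1 in 65.1% to 69.0% of draws, and a value of HCT8 exceeded one of HCT116 in 37.1% to 40.2%. Between replicates of a line the figure was 51.5% to 52.0%. Single repeats of different lines thus overlapped widely in value, while the medians stood apart.

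The shift reached most of the distribution. At all 19 percentiles from the 5th to the 95th in steps of 5, both HCT116 libraries lay above both DLD1 libraries, and so did both HCT8 libraries. The mean difference between HCT116 and DLD1 was widest at the 15th percentile (16.5 points) and narrowest at the 80th (10.5 points). Between HCT8 and DLD1 it was widest at the 5th percentile (12.2 points) and was 6.5 points at the 80th. HCT116 and HCT8 were separated at 15 of the 19 percentiles, and their libraries overlapped at the 5th, 10th, 90th and 95th.

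**Figure D2:**
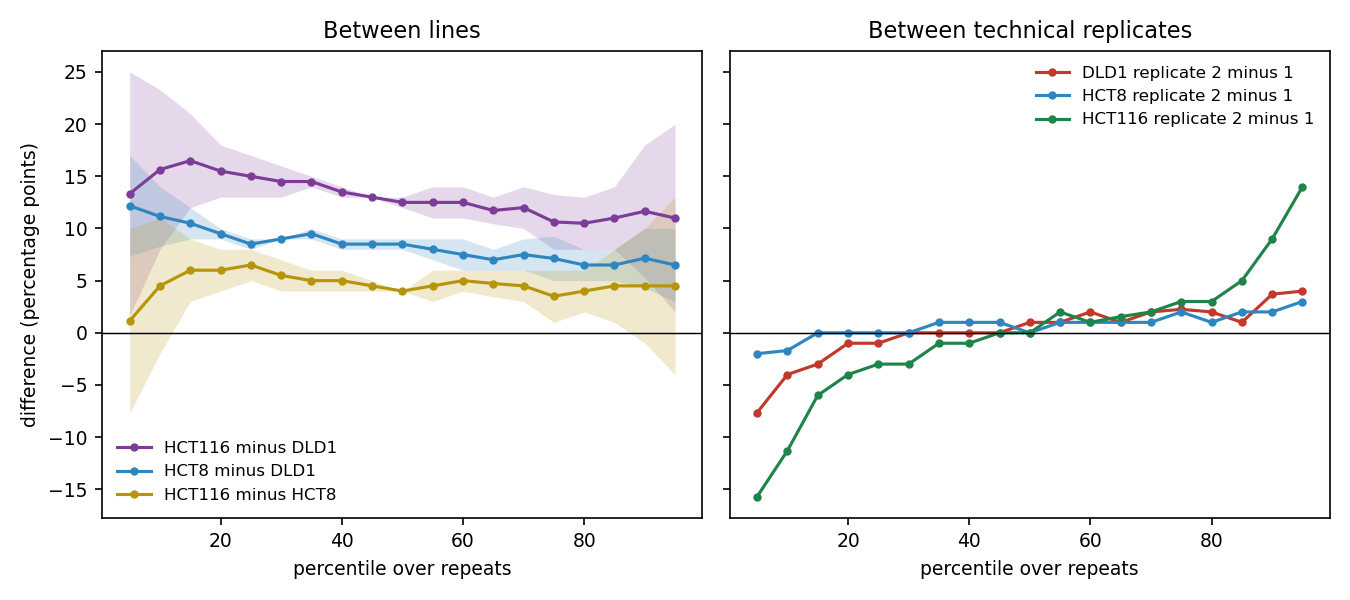
Difference in CpG methylation (y axis, percentage points) at percentiles 5 to 95 over repeats (x axis). The left panel shows differences between lines, with points for the mean and shading for the lowest and highest of 4 library pairs; the right panel shows replicate 2 minus replicate 1 within each line. Both differences from DLD1 stay above 0 throughout, and the HCT116 replicates part at both ends, by -15.7 points at the 5th percentile and 14.0 points at the 95th.

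The upper end showed this order in the share of highly methylated repeats. At 80% methylation or more, DLD1 held 43 and 76 of the 834 repeats in its replicates (5.16% and 9.11%). HCT8 held 145 and 189 (17.4% and 22.7%), and HCT116 held 253 and 311 (30.3% and 37.3%). No libraries of different lines overlapped. The difference between HCT116 and DLD1 was 26.7 percentage points, against a gap of 3.96 points between the DLD1 replicates and 6.95 points between those of HCT116. Differences between lines made up 93.9% of the sum of squares (exact permutation p = 0.0667, one-sided, adjusted p = 0.2). At 90% methylation or more, DLD1 held 9 and 21 repeats, HCT8 26 and 44, and HCT116 22 and 106, so HCT116 and HCT8 overlapped.

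At the lower end the separation of the lines depended on the level. Below 40% methylation DLD1 stood apart from both other lines, and these did not differ beyond their replicates. DLD1 held 68 and 87 repeats there (8.15% and 10.4%). HCT8 held 37 and 40 (4.44% and 4.80%) and HCT116 32 and 46 (3.84% and 5.52%). The mean share was 4.68 points lower in HCT8 than in DLD1 and 4.62 points lower in HCT116, while HCT116 minus HCT8 was 0.0600 points with HCT116 libraries on either side of both HCT8 libraries. The joint exact permutation p was 0.2 (one-sided, adjusted p = 0.3). At a level of 60% the lines were further apart, as repeats below it numbered 350 and 338 in DLD1, 154 and 165 in HCT8, and 73 and 117 in HCT116. Below 50% no lines overlapped, with 144 and 161 repeats in DLD1, 68 and 72 in HCT8 and 41 and 66 in HCT116. Below 20% the lines overlapped, with 21 and 30 repeats in DLD1, 20 and 22 in HCT8 and 16 and 21 in HCT116. Below 10% HCT8 held 15 in each library and HCT116 9 and 14, without overlap, and DLD1 held 12 and 22. In every library the distribution leaned to low values, with a median 13.7 to 25 points above the 10th percentile and a 90th percentile 9.0 to 18.0 points above the median.

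**Figure D3:**
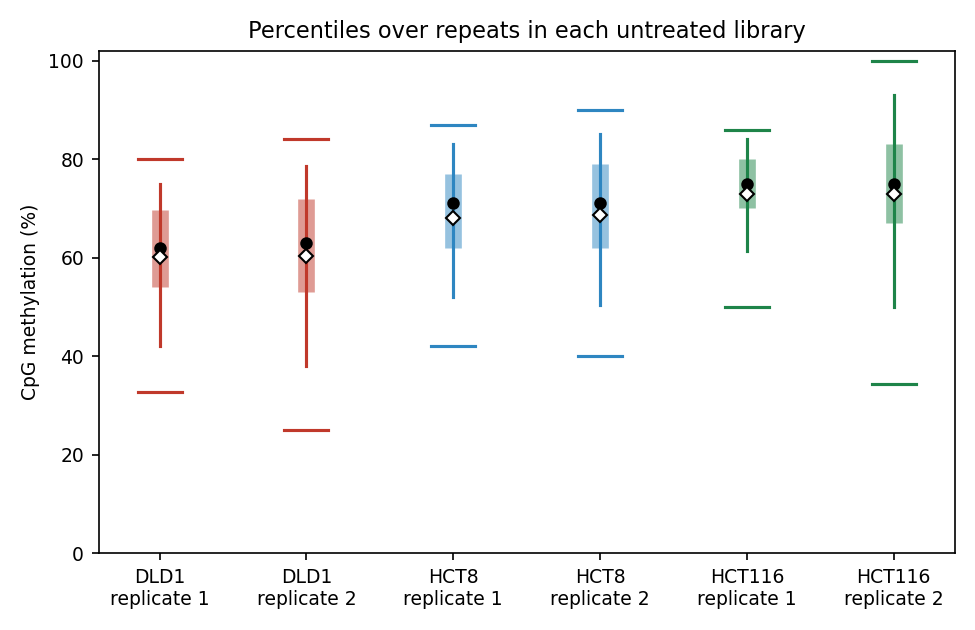
CpG methylation (y axis, percent) over 834 repeats in each of the 6 untreated libraries (x axis): black dots are medians, open diamonds means, thick bars the 25th to 75th percentile, thin lines the 10th to 90th, and short cross bars the 5th and 95th. Medians agree between replicates, while the thin lines span 22.7 points in HCT116 replicate 1 and 43.0 points in replicate 2.

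The spread over repeats overlapped between lines, and in each line replicate 2 was wider than replicate 1. The standard deviation over repeats was 15.3 and 18.0 points in the DLD1 replicates, 15.8 and 16.7 in those of HCT8, and 13.7 and 18.5 in those of HCT116. HCT116 thus held both the narrowest and the widest of the 6 libraries, although their means differed by 0.00600 points. The interquartile range was 15.75 and 19 points in the DLD1 replicates, 15 and 17 in those of HCT8, and 10 and 16 in those of HCT116. Differences between lines made up 1.92% of the sum of squares of the standard deviation (exact permutation p = 1, one-sided) and 44.2% of that of the interquartile range (exact permutation p = 0.533, adjusted p = 0.686).

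The HCT116 replicates also differed in how many repeats they listed at the extremes. Replicate 1 listed 4 repeats at 0% and 8 at 100%, and replicate 2 listed 10 and 66. DLD1 listed 7 and 14 repeats at 0% and 7 and 12 at 100%, and HCT8 listed 10 and 11 at 0% and 11 and 26 at 100%. The share at either extreme ran from 1.44% to 9.11%, both in HCT116, and lines made up 20.7% of its sum of squares (exact permutation p = 0.933, one-sided, adjusted p = 1). With the values of 0% and 100% left out, the standard deviations in HCT116 were 12.6 and 15.5 points. In all 3 lines replicate 2 listed more repeats at 100%, and it held the larger share both at or above 80% and below 40%. The labels do not say what the replicate number stands for.

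In every untreated library more repeats stood at 50% than at the neighbouring percents, to different extents. In HCT116 replicate 2, 21 repeats were listed at 50%, against a mean of 1.0 at 49% and 51%. In HCT116 replicate 1 it was 5 against 2.5. In the DLD1 replicates 16 repeats stood at 50% against 12.5 at its neighbours in replicate 1, and 19 against 8.0 in replicate 2. In HCT8 it was 9 against 2.5 and 12 against 3.5. At 33%, DLD1 listed 4 repeats in replicate 1 against a mean of 2.0 at 32% and 34%, and 12 against 1.5 in replicate 2. HCT8 listed 2 in each library, against 0.5 and 0, and HCT116 listed 0 in replicate 1 and 6 against 1.0 in replicate 2. At 67% every library again listed more repeats than at the neighbouring percents. At 75%, HCT116 replicate 1 listed 33 against 43.5 and HCT8 replicate 1 listed 29 against 33.5. At 25%, DLD1 replicate 1 listed 0 against 1.0, and HCT8 listed 1 in each library against 1.0 and 2.0. The remaining libraries listed more at 25% and 75% than at the neighbours. The part that gathering at such percents plays in the spread was not tested.

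**Figure D4:**
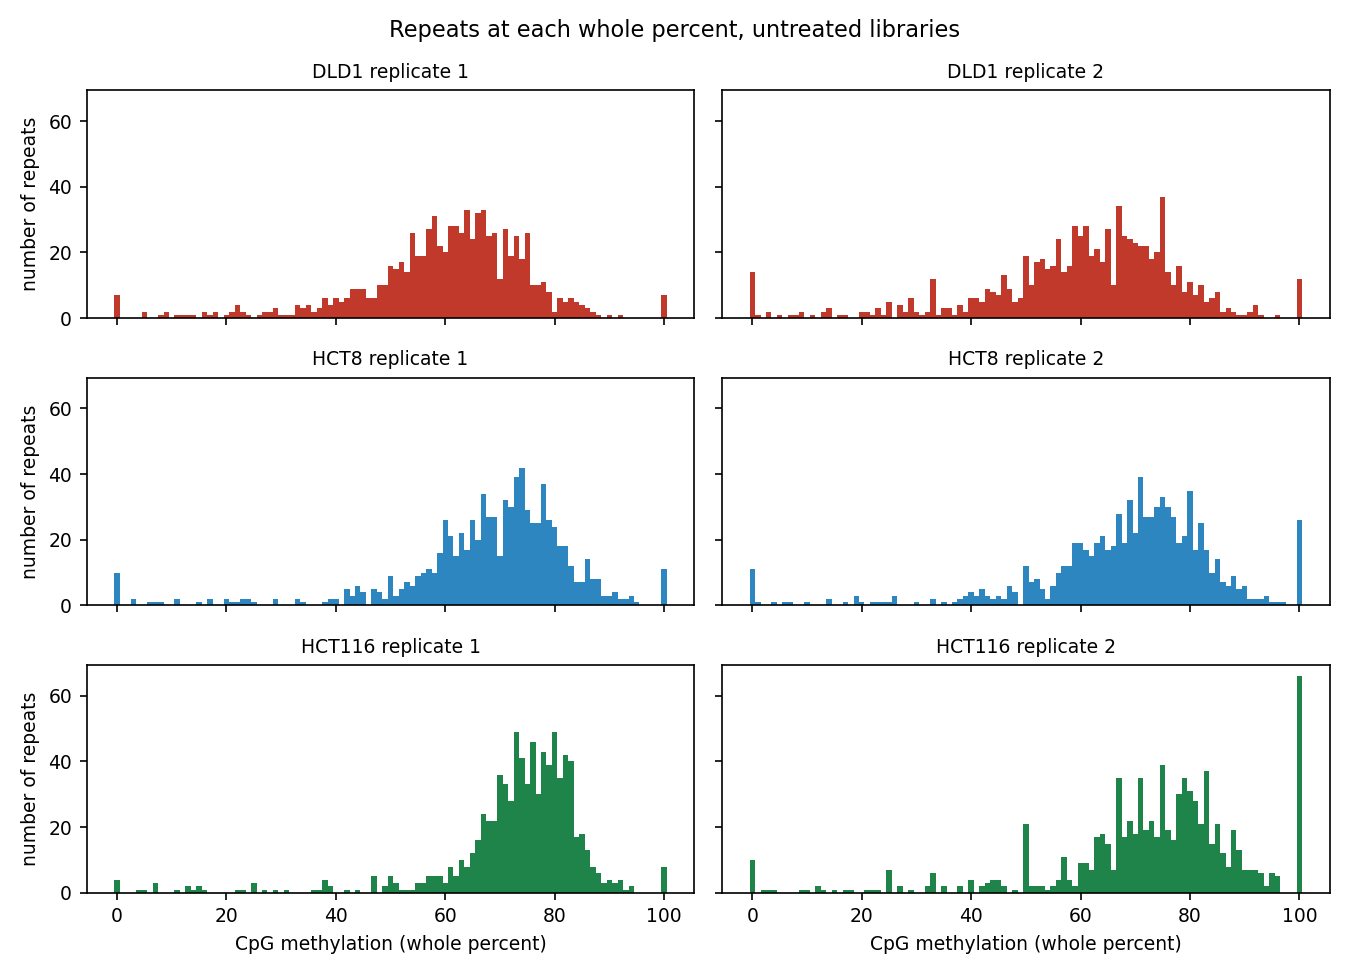
Number of repeats (y axis) listed at each whole percent of CpG methylation (x axis) in the 6 untreated libraries, 1 panel per library with lines in rows and replicates in columns. The bar at 100% holds 66 repeats in HCT116 replicate 2 and 8 in replicate 1, and the fullest 10-point range starts at 60% in DLD1 and at 70% in the other lines.

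Whole distributions were then set against each other by ranking the values of each library and averaging the difference between values of equal rank. Replicates lay 2.24 points apart for DLD1, 1.06 points for HCT8 and 4.38 points for HCT116. Libraries of HCT116 and DLD1 lay 12.5 to 12.9 points apart, those of HCT8 and DLD1 7.62 to 8.69 points, and those of HCT116 and HCT8 4.499 to 5.32 points. The mean was 2.56 points within lines and 8.59 points between lines (exact permutation p = 0.0667, one-sided, the smallest of 15 splits). The distance between HCT116 and HCT8 was thus only slightly larger than that between the HCT116 replicates. Once each library was centred on its own median, libraries of different lines lay 2.39 points apart on average and replicates 2.52 points (exact permutation p = 0.467, one-sided).

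The order of the untreated lines was also that of the treated libraries at the centre of the distribution. HCT116 minus DLD1 in median level was 12.5 points at 0 nM, 18.0 points at 500 nM and 23.5 points at 1000 nM. HCT8 minus DLD1 was 8.5, 7.0 and 11.0 points at these doses, and HCT116 minus HCT8 was 4.0, 11.0 and 12.5 points. At 500 nM each line has a single library, so differences at that dose have no replicate check. Averaged over doses these differences were 18.0, 8.83 and 9.17 points, and each gave p = 0.0278 in an exact permutation of line labels within dose (two-sided, 72 arrangements, adjusted p = 0.0370 over 12 tests), the smallest p possible. The means over repeats gave the same p in all 3 pairs of lines. Without the 500 nM libraries the adjusted p was 0.0667 for each, as fewer arrangements are then possible. The tails kept the order less well, and the differences that turned were those at 500 nM. At the 10th percentile HCT8 exceeded DLD1 by 11.2 points at 0 nM and 13.0 points at 1000 nM but lay 11.0 points lower at 500 nM, where the HCT8 library listed 90 repeats at 0% (exact permutation adjusted p = 0.444, and 0.0333 without values of 0% and 100%). At the 90th percentile HCT116 exceeded HCT8 by 4.5 points at 0 nM and 14.5 points at 1000 nM and was 3.0 points lower at 500 nM (exact permutation adjusted p = 0.242). The replicates are technical here too, so these tests measure the spread between libraries and not that between cultures. They count technical replicates as separate units, so their p-values cannot be read as tests over independent cultures. The averages over doses also take in drug-treated libraries, where the differences of HCT116 from both other lines in median were larger. They are therefore not a test of the untreated lines.

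Which repeats make up the tails can be described in replicate 1 of DLD1 alone. In that library membership of 20 lists of repeat names held 25.2% of the variance over 792 listed repeats, where unrelated values would give 2.40% on average, and in the other 5 untreated libraries it held 2.11% to 5.36%. Values in neighbouring rows of the alphabetical table correlated at 0.287 in this library and at -0.0224 to 0.0828 in the others. The highest of the others in both measures was HCT116 replicate 1, at 5.36% and 0.0828. Whether its values follow the names weakly was not tested. The standard deviation over the 17 AluS subfamilies was 1.63 points here and 7.81 to 19.9 points elsewhere. What follows is a single library with no replicate check.

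**Figure D5:**
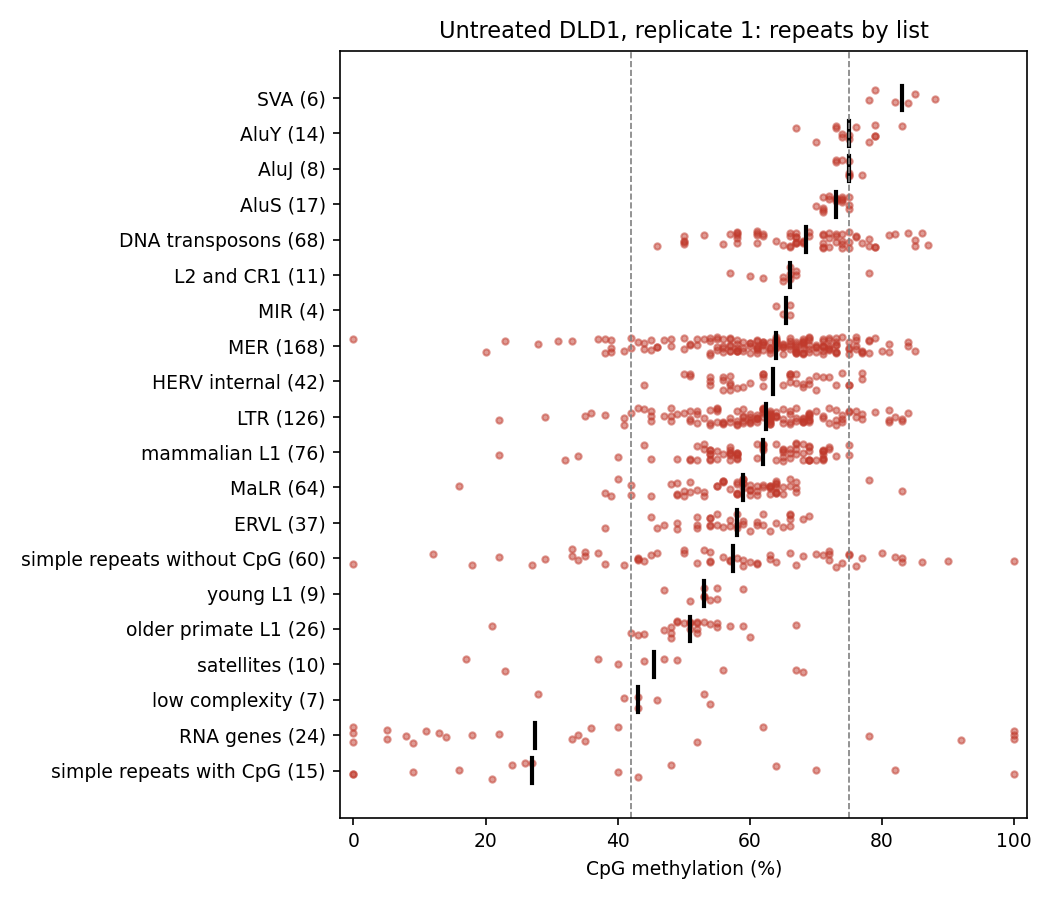
CpG methylation (x axis, percent) of the members of 20 lists of repeats (y axis, number of members in brackets) in replicate 1 of untreated DLD1; each point is a repeat, black bars are list medians, and dashed lines mark the library's 10th and 90th percentiles, 42% and 75%. The medians run from 27% for simple repeats whose unit holds a CpG to 83% for SVA.

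RNA genes and simple repeats account for 99 of the 834 repeats of this library, for 40 of the 85 at or below its 10th percentile of 42%, and for 18 of the 21 below 20%. The 85 repeats at or below the 10th percentile, called the low tail here, are 10.2% of the library, and the 108 at or above the 90th percentile of 75%, called the high tail, are 12.9%, as several repeats share these values. Of 24 RNA gene names, 5 lay in the high tail (20.8%). So did 2 of 15 simple repeats with a CpG in the unit (13.3%) and 11 of 60 without (18.3%). Of the 7 repeats at 0%, the transfer RNA names were tRNA-Gln-CAG, tRNA-Lys-AAA and tRNA-Ser-TCA(m). The simple repeat (CCGAG)n was at 0% too, as were its complement (CTCGG)n and the unrelated unit (AAGTG)n. The last of them was MER133A. Next came LSU-rRNA_Hsa, the large ribosomal RNA, and the spliceosomal U1 at 5%, the ribosomal 5S at 8%, U4 and (CCGGG)n at 9%, tRNA-Glu-GAG_ at 11%, (CTGGGG)n at 12%, U17, a small nucleolar RNA, at 13%, and 7SLRNA, the RNA of the signal recognition particle, at 14%. Active copies of such genes are transcribed in every cell. The 3 other names below 20% were MER133A, the internal region THE1-int at 16% and the satellite CER at 17%.

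Simple repeats, tandem copies of a short unit, differed in this library by whether the unit holds a CpG of its own. The 15 with a CpG had a median of 27%, and 9 of them lay in the low tail. Among them (CGG)n, a unit common in CpG islands at gene starts, was at 16%, (CGGGG)n at 21%, (CG)n at 24%, (CCCCG)n at 26% and (CCG)n at 27%. Others of this kind were high, with (CACG)n at 70%, (CGTG)n at 82% and (TCCGG)n at 100%. The 60 simple repeats without a CpG in the unit had a median of 57.5%, with 14 at or below the 10th percentile and 11 at or above the 90th. How CpGs were assigned to names whose unit holds none is not stated. Low-complexity stretches had a median of 43%, with GC_rich at 28%, and all 7 lay below the library median of 62%. In the other 5 untreated libraries the rows named as simple repeats with a CpG had medians of 64% to 79%, against medians of 63% to 75% over all repeats of these libraries.

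Centromeric and other satellites also lay low. ACRO1 was at 40%, HSAT5 at 37%, BSR/Beta at 23% and CER at 17%, and these 4 of 10 members lay at or below the 10th percentile. MSR1, a minisatellite, was at 47% and the centromeric ALR/Alpha at 49%, while TAR1, found next to telomeres, was at 68%. Of the young and older primate LINE-1 names, 34 of 35 lay below the library median, but 2 reached the low tail, of which L1P4e was lowest at 21%. L1HS, the LINE-1 family still mobile in humans, was at 59%. The 76 mammalian LINE-1 names did not lie low as a group. Their median was 62%, as in the whole library, with 36 names below it and 36 above, 4 in the low tail and 2 in the high tail.

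SVA elements, Alu subfamilies and DNA transposons hold 113 of the 834 repeats and 39 of the 108 in the high tail. The highest values, from 90% to 100%, belonged to other names. All 6 SVA names were in the high tail, from 78% for SVA_C to 88% for SVA_E. Of the Alu names 8 of 14 AluY, 3 of 17 AluS and 5 of 8 AluJ and monomer names reached 75%, and all 39 lay above the library median. Among AluY members AluYb9 was at 83% and AluYb8, AluYf5 and AluYk11 at 79%. Of 68 DNA transposons, fossil cut-and-paste elements, 17 were in the high tail and 0 in the low tail, with MADE2 at 87%, Tigger12A at 86%, and Tigger10 and Tigger3d at 85%. Repeats listed at 100% were the transfer RNA names tRNA-Asn-AAC, tRNA-Asn-AAT and tRNA-Leu-CTG, the simple repeats (GTATG)n and (TCCGG)n, and UCON2 and UCON8. Below them stood HY1, a Y RNA gene name, at 92% and (GTGTG)n at 90%.

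Among endogenous retroviral and mixed names, LTR (long terminal repeat) names had 8 of 126 (6.35%) in the low and 14 (11.1%) in the high tail. The shares of all repeats were 10.2% and 12.9%. These LTR names ran from LTR19C at 22% to LTR38B at 84%. MER names, which mix classes, had 15 of 168 (8.93%) in the low and 21 (12.5%) in the high tail, from MER133A at 0% to MER48 at 85%. MaLR elements had 6 of 64 low and 2 high, and ERVL elements 1 of 37 low and 0 high. Internal HERV regions had 0 of 42 low and 4 high. Without RNA gene and simple repeat names, the 735 remaining repeats of this library had a median of 63%, a 10th percentile of 47% in place of 42%, and a standard deviation of 12.03 in place of 15.3 points. The 90th percentile stayed at 75%.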

How the data were processed

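DNA of untreated DLD1, HCT8 and HCT116 cells was bisulfite converted, made into libraries and sequenced, per the labels' protocols; the labels also name the molecule as RNA, which the protocols contradict. The submitters' processing notes name BSMAP 2.74, Picard 1.8.4 and hg19 without their use. Per the file headers, the authors deposited percent CpG methylation of RepeatMasker repeats; no coverage, filter or normalization is stated in the sources used here. Of 835 rows 1 (0.12%) has no name and was left out. Columns were matched to libraries by title.

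Summaries were computed within each library and compared by exact permutation over libraries, with Benjamini-Hochberg adjustment; scripts were tested on simulated data. Replicates are technical. Tests and alternatives were fixed in advance, but the libraries, lists and name patterns were chosen with earlier results of these data known; some patterns were trimmed after the names were read, and simple repeat lists were added then. Repeats were named in replicate 1 of DLD1 only: those at 0% or 100%, the lowest and highest others, and the most extreme of each list; further examples were chosen after their values were seen. Python 3.11.15 with numpy 2.4.6, pandas 2.3.3, scipy 1.17.1 and matplotlib 3.10.9 was used.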

Additional observations from a re-analysis of the deposited data

How the results depend on the processing

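The differences between untreated lines in mean and median kept their sign under every alternative run. Leaving out single libraries gave 12.5 to 12.8 points (HCT116 minus DLD1), 7.75 to 8.39 (HCT8 minus DLD1) and 4.22 to 4.86 (HCT116 minus HCT8) for the mean. A coverage minimum was not run, as the table gives no coverage, and centring was not run for the mean and median. Rows could be left out by name (RNA genes and satellites), but only in replicate 1 of DLD1 do names mark such repeats.

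Centred on library medians, the 90th percentile became -0.85 points (HCT116 minus DLD1) and -1.35 (HCT8 minus DLD1), and the share at or above 80% became -7.31, -5.52 and -1.80 points (HCT116 minus HCT8 last). The excess of distances between lines over those within lines became -0.131 points. Centring takes the differences in median out by construction. The cause of the differences that remain was not tested.

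Differences in spread turned with single choices, and the cause was not tested. In standard deviation, HCT116 minus DLD1 became 0.335 and HCT8 minus DLD1 0.435 points without rows named as RNA genes or satellites, and HCT116 minus HCT8 became 0.231 without values of 0 and 100. Without single replicates the 3 differences ranged from -2.90 to 1.83, -1.73 to 0.980 and -2.52 to 2.21. The interquartile range of HCT8 minus DLD1 ranged from -3.0 to 0.25, and the 10th percentile of HCT116 minus HCT8 from -1.15 (without replicate 1 of HCT116) to 10.2. The share below 40% of HCT116 minus HCT8 became -0.240 at a level of 30% and -1.98 at 50%, and ranged from -0.779 to 0.899 without single replicates. The share at 0% or 100% became -0.382 (HCT116 minus DLD1) and -0.395 (HCT116 minus HCT8) without values of 100, and ranged from -0.959 to 6.71 and from -2.04 to 5.64, the low ends without replicate 2 of HCT116.

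Over the 3 doses, leaving out the 500 nM libraries kept the sign of every difference, but no test then passed (exact permutation). Adjusted p was 0.0667 throughout, except 0.167 and 0.121 for HCT116 minus HCT8 at the 10th and 90th percentile. Means became 17.4, 9.05 and 8.32 points, medians 18.0, 9.75 and 8.25, the 10th percentile of HCT116 minus DLD1 19.7, and the 90th percentiles of HCT116 and HCT8 minus DLD1 17.1 and 7.58. The 10th percentile of HCT8 minus DLD1 went from 4.38 to 12.1 and that of HCT116 minus HCT8 from 16.1 to 7.65; the 90th of HCT116 minus HCT8 went from 5.33 to 9.5. Without values of 0 and 100 the 10th percentile of HCT8 minus DLD1 became 7.13. Without single replicates the 90th percentile ranged from 14.05 to 20.05 (HCT116 minus DLD1) and 10.9 to 12.6 (HCT8 minus DLD1), the 10th from 18.6 to 22.4 (HCT116 minus DLD1) and 14.2 to 18.0 (HCT116 minus HCT8). Calls were lost (exact permutation adjusted p = 0.0741) for HCT116 minus DLD1 at the 90th percentile without any 1 of the DLD1 replicates at 0 or 1000 nM and at the 10th without replicate 2 of untreated DLD1, and for HCT8 minus DLD1 at the 90th without replicate 1 of DLD1 at 1000 nM. HCT116 minus HCT8 at the 10th passed (adjusted p = 0.0333, exact permutation) without replicate 2 of untreated HCT116. All tests over doses count technical replicates as separate units.

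With a replicate block every difference is the same by construction, 12.6 points for HCT116 minus DLD1 in mean level, and exact sign flips over 2 pairs gave p = 0.5. The labels do not say that a number marks anything shared. The row-wise correlations of the deviations of same-numbered replicates (-0.0470 to -0.0107) cannot tell whether it does, since rows do not correspond between libraries. Replicate 2 had the larger standard deviation in all 3 lines.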
